A study of Mus musculus with 10 samples.

Results

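The genes described here build sterols and fatty acids or control that synthesis. They comprise the enzymes that turn acetyl-CoA into cholesterol, a cholesterol carrier, the SREBP transcription factors with their retention machinery, and the enzymes that make, elongate and desaturate fatty acids. The set holds 36 genes, chosen with earlier results of these data known. A gene was measured where a probe set of the array carried its symbol and no other. Where a gene had several such probe sets, the one with the highest mean over all arrays stood for it. This found 34 of the 36 genes among 18820 genes with 1 symbol. Acat2 had no such probe set, and Acsl3 appeared only on a probe set that also carries another symbol, so neither is described.

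The cells came from the intestinal epithelium of mice with a pair of reporters. Lgr5-EGFP-ires-CreERT2 mice make a green protein (GFP) from the Lgr5 promoter, which is active in the stem cells at the crypt base, and in Ki67-TagRFP mice a red protein (RFP) is joined to the C-terminus of endogenous Ki67, a protein of cycling cells. All groups carry the reporters, and no cells without them were compared. Sorting by fluorescence gave Lgr5-high Ki67-high cells (2 arrays), Lgr5-high Ki67-low cells (2 arrays), Lgr5-medium Ki67-high cells (4 arrays) and Lgr5-medium Ki67-low cells (2 arrays). The labels give neither age nor strain, and do not say whether replicate arrays came from separate animals. The p-values therefore rest on differences among these samples that may be technical. Each array gives 1 log2 expression value per probe set (the log base was inferred from the range of the values), on which a difference of 1 is a 2-fold difference. Levels are compared between groups for 1 gene at a time, never between genes.

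Cholesterol synthesis starts in the cytosol with the joining of acetyl-CoA units and passes through mevalonate, isoprenoid diphosphates, squalene and lanosterol. The transcription factor SREBP2, encoded by Srebf2, raises the whole set of its enzymes when sterols are scarce, whereas SREBP1, encoded by Srebf1, acts more on fatty acid synthesis. Both are carried to the Golgi for cleavage by Scap, and the Insig proteins hold Scap back in the endoplasmic reticulum when sterols are plentiful. In the intestine, sterol synthesis is known to take place in crypt cells as well as in the absorptive epithelium, which also takes up dietary cholesterol.

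The sort markers differed as labelled for Lgr5, with group means of 9.38 and 10.22 in the Lgr5-high groups and 7.39 and 8.58 in the Lgr5-medium groups. Mki67, which encodes Ki67, lay between 9.79 and 10.18 in all 4 groups. A list of 8 stem cell markers, Lgr5 among them, had summed levels of 13.13 to 13.51 on the Lgr5-high arrays and 12.38 to 12.86 on the Lgr5-medium arrays. The Lgr5-medium Ki67-low arrays stood apart through markers of other cell types. Their summed tuft cell level was 10.57 to 11.36, against 7.31 to 8.63 on all other arrays, and their enteroendocrine level was 12.62 to 12.63, against 9.18 to 10.72. Array medians over the genes lay between 4.97 and 5.13. The mean correlation of an array with the rest was lowest for Lgr5-medium Ki67-high replicate 4 (0.986).

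Across the 4 sort groups, 27 of the 34 genes had their highest mean in Lgr5-medium Ki67-high cells. The exceptions were Fads1, Fads2, Acaca and Acss2, highest in Lgr5-high Ki67-low cells, and Ggps1, Insig2 and Acly, highest in Lgr5-medium Ki67-low cells. The lowest mean lay in one of the Lgr5-high groups for 28 genes, 19 of them in Lgr5-high Ki67-low cells and 9 in Lgr5-high Ki67-high cells. These orders of the means were not counted over all genes, so no share stands beside them. Averaged over the 18 measured sterol enzymes, the deviation from a gene's mean over the 10 arrays was -0.30 and -0.18 on the Lgr5-high Ki67-high arrays and -0.25 and -0.33 on the Lgr5-high Ki67-low arrays. It was 0.18, 0.36, 0.38 and 0.21 on the Lgr5-medium Ki67-high arrays, and 0.09 and -0.15 on the Lgr5-medium Ki67-low arrays. The Lgr5-high arrays therefore lay below all Lgr5-medium arrays in this average.

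**Figure D1:**
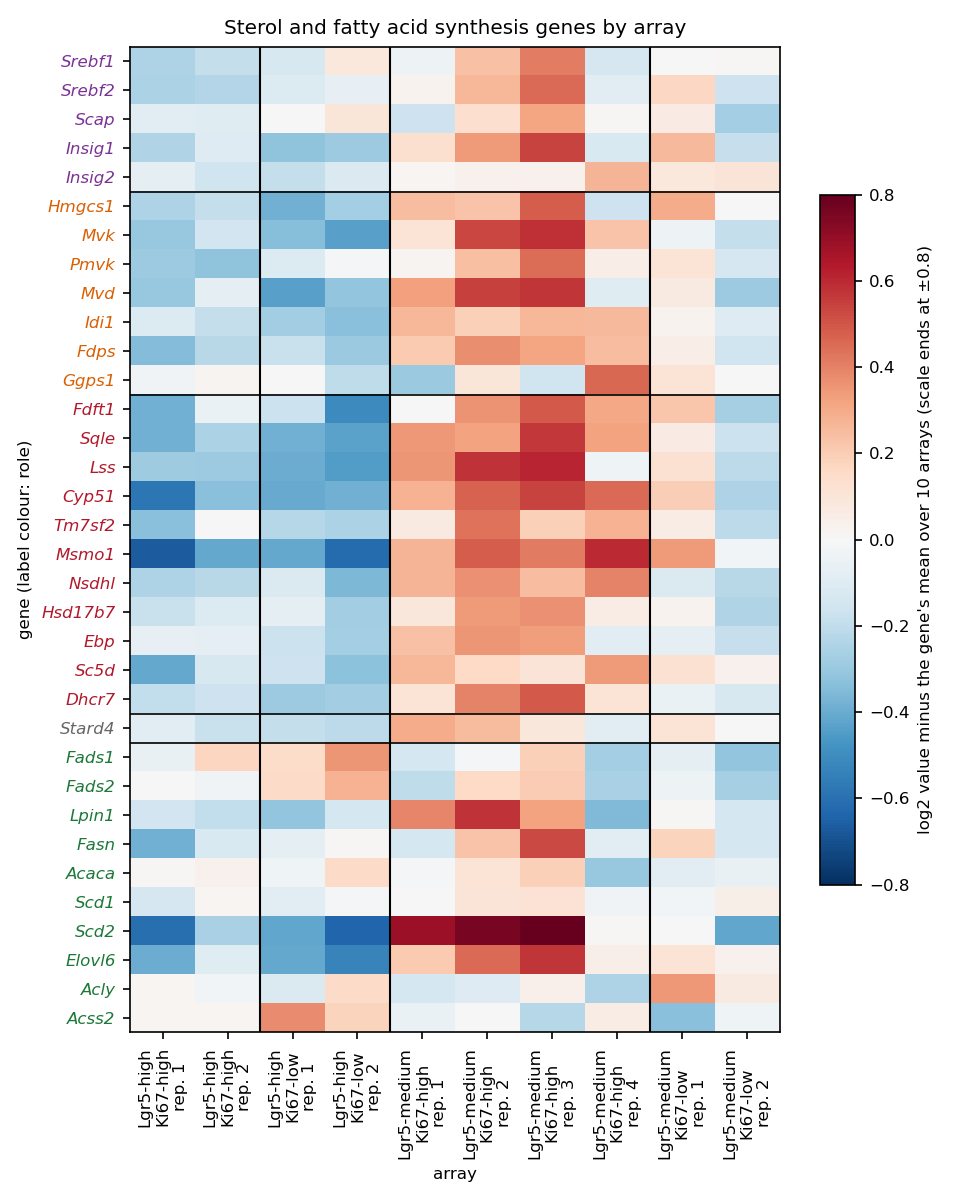
Expression of the 34 genes on the 10 arrays, as the log2 value minus the gene's mean over all arrays (colour, red above and blue below the mean, scale ended at 0.8 in both directions). Rows are grouped by role (label colour: regulators violet, early sterol enzymes orange, late sterol enzymes red, Stard4 grey, fatty acid and lipid genes green), and columns by sort group. The sterol enzymes are mostly blue on the Lgr5-high arrays and mostly red on the Lgr5-medium Ki67-high arrays, while Fads1, Fads2, Acly and Acss2 follow other patterns.

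Promoters of the genes were set beside these values because SREBP is known to bind the sterol regulatory element in such promoters, together with the factor NF-Y, which binds the CCAAT box. RefSeq's promoter table (GRCm38.p6) held 37 windows for 29 of the 36 genes (regulators, fatty acid genes, Acat2 and Acsl3 included), each from 250 bases before to 50 bases after a transcription start. The element TCACNCCAC, searched on both strands, occurred in 408 of all 32851 windows (1.24%) and in 1 of the 37 windows (2.7%), that of Hmgcs1, where it starts 137 bases before the transcription start. The CCAAT box, read as CCAAT on one strand or ATTGG on the other, occurred in 24 of the 37 windows (64.9%), for 23 of the 29 genes, against 37.4% of all windows. The CCAAT box was searched after the result for the other motif was known. The motifs do not share bases in the sequences printed here. These matches describe letters in a window and are not measured binding sites. The 250 bases before the start are printed for Hmgcs1, the holder of the first motif, and for Msmo1, Cyp51 and Idi1, sterol enzymes past the threshold in the Lgr5 comparison averaged over both Ki67 levels, which were added after their values had been seen. The window of Elovl6, also past the threshold there, holds neither motif, and no sequence is printed for Sqle and Fdps. Capitals mark the motifs, and each sequence runs 5′ to 3′ on the strand of its gene.
Hmgcs1: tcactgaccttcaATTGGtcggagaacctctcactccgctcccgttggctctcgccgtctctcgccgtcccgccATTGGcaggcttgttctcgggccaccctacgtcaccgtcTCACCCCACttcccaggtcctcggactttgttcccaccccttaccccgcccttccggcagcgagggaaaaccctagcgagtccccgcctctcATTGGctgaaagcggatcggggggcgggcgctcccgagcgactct
Msmo1: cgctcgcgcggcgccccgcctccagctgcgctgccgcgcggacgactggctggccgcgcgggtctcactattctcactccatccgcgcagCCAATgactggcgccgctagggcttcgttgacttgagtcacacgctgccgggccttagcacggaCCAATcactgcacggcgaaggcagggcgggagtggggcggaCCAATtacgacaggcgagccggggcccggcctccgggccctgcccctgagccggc
Cyp51: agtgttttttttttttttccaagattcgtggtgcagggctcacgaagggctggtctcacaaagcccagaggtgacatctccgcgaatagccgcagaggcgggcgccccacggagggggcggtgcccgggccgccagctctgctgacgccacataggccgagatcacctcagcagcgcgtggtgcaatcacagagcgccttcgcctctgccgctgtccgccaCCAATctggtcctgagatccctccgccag
Idi1: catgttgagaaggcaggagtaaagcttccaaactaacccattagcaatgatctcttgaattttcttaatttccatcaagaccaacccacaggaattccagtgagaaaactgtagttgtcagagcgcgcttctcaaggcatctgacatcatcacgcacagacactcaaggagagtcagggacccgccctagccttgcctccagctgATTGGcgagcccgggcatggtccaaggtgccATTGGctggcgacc
The printed stretches lie at chr13:119690101-119690350 on the plus strand (Hmgcs1), chr8:64733579-64733828 on the minus strand (Msmo1), chr5:4104698-4104947 on the minus strand (Cyp51) and chr13:8885356-8885605 on the plus strand (Idi1). Hmgcs1 holds 3 CCAAT boxes there, 237, 176 and 45 bases before the start. Msmo1 also holds 3, 160, 96 and 55 bases before the start, Cyp51 holds 1 (29 bases before) and Idi1 holds 2 (45 and 14 bases before).

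Sterol enzymes were lower in Lgr5-high than in Lgr5-medium cells, the comparison that sets stem cells against cells with less Lgr5 reporter. Averaged over both Ki67 levels, all 18 measured sterol enzymes lay below 0, with a median difference of -0.39 against 0.02 for all genes tested, and 9 of them passed the threshold. The threshold was a limma p-value under 0.05 after Benjamini-Hochberg adjustment over the 18820 genes. Of all 34 genes described, 10 passed, all lower, the tenth being the fatty acid elongase Elovl6. This is 29.4% of them, where 5.92% of all genes passed in either direction and 3.52% passed as lower. At an unadjusted p under 0.05 there were 23 of the 34 genes, 21 of them lower, and 20% of all genes. On 11 of the 34 genes (32.4%), all 4 Lgr5-high arrays lay below all 6 Lgr5-medium arrays, as did 3.78% of all genes.

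The first steps of the sterol pathway make mevalonate and convert it to isoprenoid diphosphates. Hmgcs1 (probe set 10412466), the synthase that forms HMG-CoA, measured 8.57 and 8.62 in Lgr5-high Ki67-high cells and 8.43 and 8.54 in Lgr5-high Ki67-low cells. Its values were 9.06, 9.04, 9.30 and 8.65 in Lgr5-medium Ki67-high cells and 9.11 and 8.81 in Lgr5-medium Ki67-low cells. The Lgr5-high arrays of Hmgcs1 were below all others, and Lgr5-medium Ki67-high replicate 4 came closest to them. Its averaged difference was -0.44 ± 0.12 (SE) and missed the threshold (limma adjusted p = 0.0631).

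Mevalonate kinase, encoded by Mvk (probe set 10524555), measured 6.54 and 6.69 in Lgr5-high Ki67-high cells, 6.51 and 6.41 in Lgr5-high Ki67-low cells, 6.96, 7.38, 7.43 and 7.08 in Lgr5-medium Ki67-high cells, and 6.81 and 6.66 in Lgr5-medium Ki67-low cells. The groups overlapped for Mvk, since the lower Lgr5-medium Ki67-low array (6.66) lay under one Lgr5-high array, and Mvk passed in that average, at -0.43 ± 0.10 (limma adjusted p = 0.0407). The next enzymes on the route, phosphomevalonate kinase (Pmvk) and mevalonate diphosphate decarboxylase (Mvd), had averaged differences of -0.27 ± 0.10 and -0.39 ± 0.14 that missed the threshold (limma adjusted p = 0.139 and 0.145).

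Idi1 and Fdps gave some of the tightest differences. Idi1 (probe set 10403413), the isomerase that activates the isoprenoid unit, measured 9.27 and 9.19 in Lgr5-high Ki67-high cells and 9.10 and 9.05 in Lgr5-high Ki67-low cells. Its values were 9.64, 9.57, 9.65 and 9.64 in Lgr5-medium Ki67-high cells and 9.41 and 9.27 in Lgr5-medium Ki67-low cells. Its averaged difference of -0.33 ± 0.06 passed (limma adjusted p = 0.0117), although the lowest Lgr5-medium array (9.2737) and the highest Lgr5-high array (9.272) nearly touched. The gene has a second probe set, at -0.32 ± 0.07, which missed the threshold when every probe set was tested (limma adjusted p = 0.0614). Fdps (probe set 10499483), which makes farnesyl diphosphate, the last intermediate shared by sterols and prenylated proteins, measured 8.24, 8.37, 8.41 and 8.29 on the Lgr5-high arrays. On the Lgr5-medium arrays it measured 8.80, 8.96, 8.90 and 8.84 with high Ki67 and 8.64 and 8.43 with low Ki67. Fdps fell by 0.38 ± 0.07 on the log2 scale (limma adjusted p = 0.0145), again without overlap between the Lgr5 levels.

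Ggps1 differed from its neighbours on the route. It encodes the synthase of geranylgeranyl diphosphate, which leads to protein prenylation and away from sterols. Its means among Ki67-high cells were 6.91 ± 0.032 (SD, n = 2) at high Lgr5 and 6.94 ± 0.33 (SD, n = 4) at medium Lgr5. Among Ki67-low cells they were 6.81 ± 0.14 (SD, n = 2) and 6.97 ± 0.072 (SD, n = 2). The averaged difference was -0.09 ± 0.14, and the means lay within the spread of the Lgr5-medium Ki67-high arrays.

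Late sterol enzymes, from squalene to cholesterol, held the largest sterol differences. Squalene epoxidase, encoded by Sqle (probe set 10424349), is a rate-limiting enzyme of the pathway. It measured 7.72 and 7.85 in Lgr5-high Ki67-high cells and 7.72 and 7.68 in Lgr5-high Ki67-low cells. The Lgr5-medium arrays gave 8.45, 8.42, 8.67 and 8.42 with high Ki67 and 8.17 and 7.93 with low Ki67. No Lgr5-high array reached the lowest Lgr5-medium array, and Sqle fell by 0.53 ± 0.08 on average (limma adjusted p = 0.00553).

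Lanosterol demethylase, encoded by Cyp51 (probe set 10527920), measured 7.18 and 7.42 in Lgr5-high Ki67-high cells, 7.35 and 7.37 in Lgr5-high Ki67-low cells, 8.03, 8.22, 8.30 and 8.21 in Lgr5-medium Ki67-high cells, and 7.95 and 7.51 in Lgr5-medium Ki67-low cells. The averaged difference was -0.63 ± 0.10 (limma adjusted p = 0.00707), with no overlap. Msmo1 (probe set 10578916), the monooxygenase that removes methyl groups from the sterol ring, had the smallest p-value of the 34 genes. It measured 8.12 and 8.38 in Lgr5-high Ki67-high cells, 8.38 and 8.18 in Lgr5-high Ki67-low cells, 9.07, 9.28, 9.21 and 9.39 in Lgr5-medium Ki67-high cells, and 9.13 and 8.77 in Lgr5-medium Ki67-low cells. No Lgr5-high array of Msmo1 reached an Lgr5-medium array, and it was 1.77-fold lower on average (-0.83 ± 0.10, limma adjusted p = 0.00283).

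Lower in the averaged comparison as well were Lss, Nsdhl and Sc5d. Lanosterol synthase, encoded by Lss (probe set 10364194), measured 6.80, 6.80, 6.69 and 6.64 on the Lgr5-high arrays, 7.44, 7.67, 7.70 and 7.06 in Lgr5-medium Ki67-high cells, and 7.21 and 6.88 in Lgr5-medium Ki67-low cells. Its difference was -0.52 ± 0.13 (limma adjusted p = 0.0450). Sc5d (probe set 10592585), a sterol desaturase, measured 7.95, 8.23, 8.19 and 8.03 on the Lgr5-high arrays, 8.63, 8.52, 8.46 and 8.70 in Lgr5-medium Ki67-high cells, and 8.48 and 8.40 in Lgr5-medium Ki67-low cells. Both genes were without overlap between the Lgr5 levels, and Sc5d differed by -0.40 ± 0.08 (limma adjusted p = 0.0192).

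Nsdhl was highest in a single group. This sterol dehydrogenase (probe set 10600082), which works on the same demethylation as Msmo1, measured 9.22, 9.32, 9.20 and 9.35 in Lgr5-medium Ki67-high cells. Every other array was lower, with 8.70 and 8.73 in Lgr5-high Ki67-high cells, 8.84 and 8.59 in Lgr5-high Ki67-low cells, and 8.83 and 8.73 in Lgr5-medium Ki67-low cells. The Ki67-low groups thus overlapped, and the averaged difference of -0.31 ± 0.07 (limma adjusted p = 0.0316) came with -0.56 among Ki67-high cells and -0.07 among Ki67-low cells. The test of the difference between these values, the interaction, missed the threshold (0.49 ± 0.14, limma adjusted p = 0.252).

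The other late enzymes had averaged differences that missed the threshold. Fdft1, squalene synthase, the first enzyme committed to sterols, was at -0.41 ± 0.14, and Dhcr7, a reductase of the last steps, at -0.33 ± 0.09 (limma adjusted p = 0.116 and 0.0637). The sterol reductase Tm7sf2 (-0.29), the keto-sterol reductase Hsd17b7 (-0.21) and the sterol isomerase Ebp (-0.18) had smaller values. Dhcr7 was nonetheless without overlap, at 7.98 to 8.11 on the Lgr5-high arrays and 8.15 to 8.76 on the Lgr5-medium arrays. Stard4, which carries cholesterol between membranes, had group means of 8.16 and 8.09 in the Lgr5-high groups and 8.43 and 8.35 in the Lgr5-medium groups, a difference of -0.26 ± 0.08 (limma adjusted p = 0.107).

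**Figure D2:**
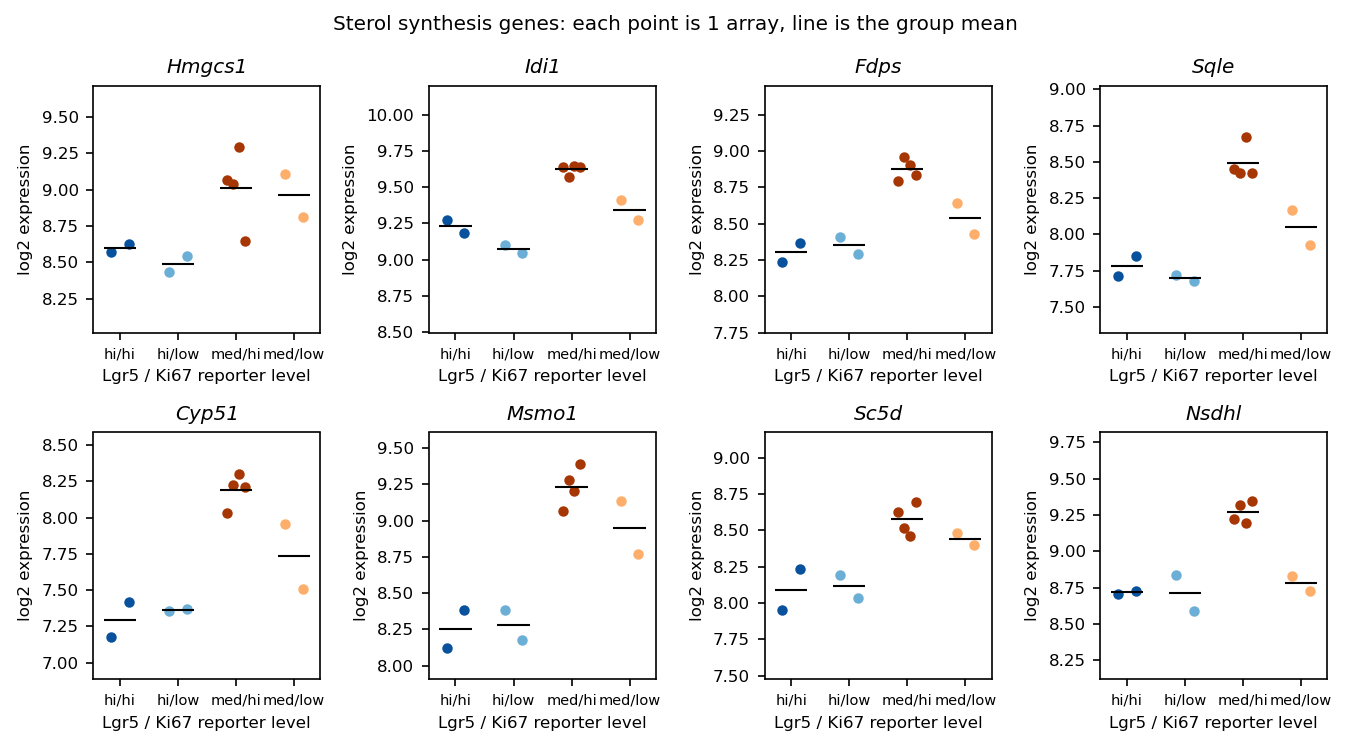
Log2 expression of 8 sterol synthesis genes, with 1 point per array, a line at each group mean, and the sort groups on the horizontal axis (Lgr5 level before the slash, Ki67 level after it; hi, med and low stand for high, medium and low). The vertical axes differ between genes. Lgr5-medium Ki67-high arrays are highest for Idi1, Fdps, Sqle, Cyp51 and Nsdhl, and Nsdhl shows the 3 other groups at a similar level.

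Among Ki67-high cells alone, where both Lgr5 levels were cycling by their reporter, 5 sterol enzymes fell in Lgr5-high cells. They were Msmo1 (-0.98 ± 0.13), Cyp51 (-0.89 ± 0.13), Sqle (-0.71 ± 0.10), Fdps (-0.57 ± 0.09) and Nsdhl (-0.56 ± 0.09), with limma adjusted p-values of 0.0201, 0.0220, 0.0226, 0.0300 and 0.0311. Msmo1 was 1.97-fold lower and Cyp51 1.86-fold lower. All 18 sterol enzymes lay below 0, with a median of -0.50. The 5 calls are 14.7% of the 34 genes, where 0.935% of all genes passed in either direction and 0.414% as lower. At an unadjusted p under 0.05 there were 24 of the 34 genes, all lower, and 15.2% of all genes. Both Lgr5-high Ki67-high arrays lay below all 4 Lgr5-medium Ki67-high arrays for 20 of the 34 genes (58.8%) and for 12.9% of all genes.

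The calls among Ki67-high cells depended on single arrays, while the sizes moved little. The counts below are of the set alone, without the share of all genes under the same setting. No gene of the set passed when replicate 1 or 2 of the Lgr5-high Ki67-high cells, or replicate 2 of the Lgr5-medium Ki67-high cells, was left out. With replicate 3 of the latter group left out 2 passed, and with its replicate 4 left out 11 did. None passed when every row of the array was tested instead of 1 probe set per gene. The median difference of the 34 genes, -0.41, stayed between -0.47 and -0.34 when any 1 array was left out. The averaged comparison gave between 3 and 18 calls with 1 array left out. It had 3 without Lgr5-high Ki67-low replicate 2, 4 without Lgr5-high Ki67-high replicate 1 or Lgr5-medium Ki67-low replicate 1, 6 without Lgr5-high Ki67-high replicate 2 or Lgr5-medium Ki67-low replicate 2, and 18 without Lgr5-medium Ki67-high replicate 4. Msmo1, Sqle and Cyp51 passed in that average in each of the 18 other settings tried, with adjusted p-values up to 0.0198, 0.0362 and 0.0438.

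Among Ki67-low cells no gene of the set passed, where 2.84% of all genes did. At an unadjusted p under 0.05 there were 11 of the 34 genes, 8 of them lower, and 14.6% of all genes. Msmo1 came closest, at -0.67 ± 0.16 (limma adjusted p = 0.0523), followed by Acss2 at 0.46 ± 0.13 (0.111) and Elovl6 at -0.54 ± 0.17 (0.144). All 18 sterol enzymes lay below 0 with a median of -0.26, but only 15 did so, with a median of -0.19, when each array was centred on its median, because Pmvk, Nsdhl and Hsd17b7 turned. The median of the 34 genes was -0.19, and it was -0.08 with the first of the Lgr5-medium Ki67-low arrays left out and -0.27 with the second left out. In the same comparison all 7 tuft, all 8 enteroendocrine and all 7 goblet cell markers measured were lower in Lgr5-high cells, with medians of -2.96, -2.74 and -1.51. Below 0 were also 6 of 7 Paneth, 7 of 7 enterocyte and 8 of 8 immune markers (medians -0.81, -0.71 and -0.53). Of 8 stromal markers 5 lay below 0, with Vim at -2.61. Stem cell markers passed as higher in Lgr5-high cells for 5 of 8 among Ki67-low cells and 6 of 8 among Ki67-high cells. Both counts include Lgr5, whose reporter set the gates, so its call follows from the sort. Of all 18820 genes, 124 passed as higher among Ki67-low cells and 98 among Ki67-high cells. In bulk samples, fewer cells of a type and less RNA per cell cannot be told apart, and the part of these cell types in the sterol values was not tested. Among Ki67-high cells, where Msmo1 and the 4 other enzymes passed, 0 markers of tuft, enteroendocrine, goblet, Paneth or enterocyte cells passed limma's test. Only 0.935% of all genes passed there, so this count says little about these cell types. The medians of these lists lay between -0.10 and 0.86, the highest for Paneth markers. At an unadjusted p under 0.05 there were 0 tuft, 4 enteroendocrine, 0 goblet, 6 Paneth and 2 enterocyte markers, and 15.2% of all genes. The part of these markers in the sterol values was not tested here either.

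**Figure D3:**
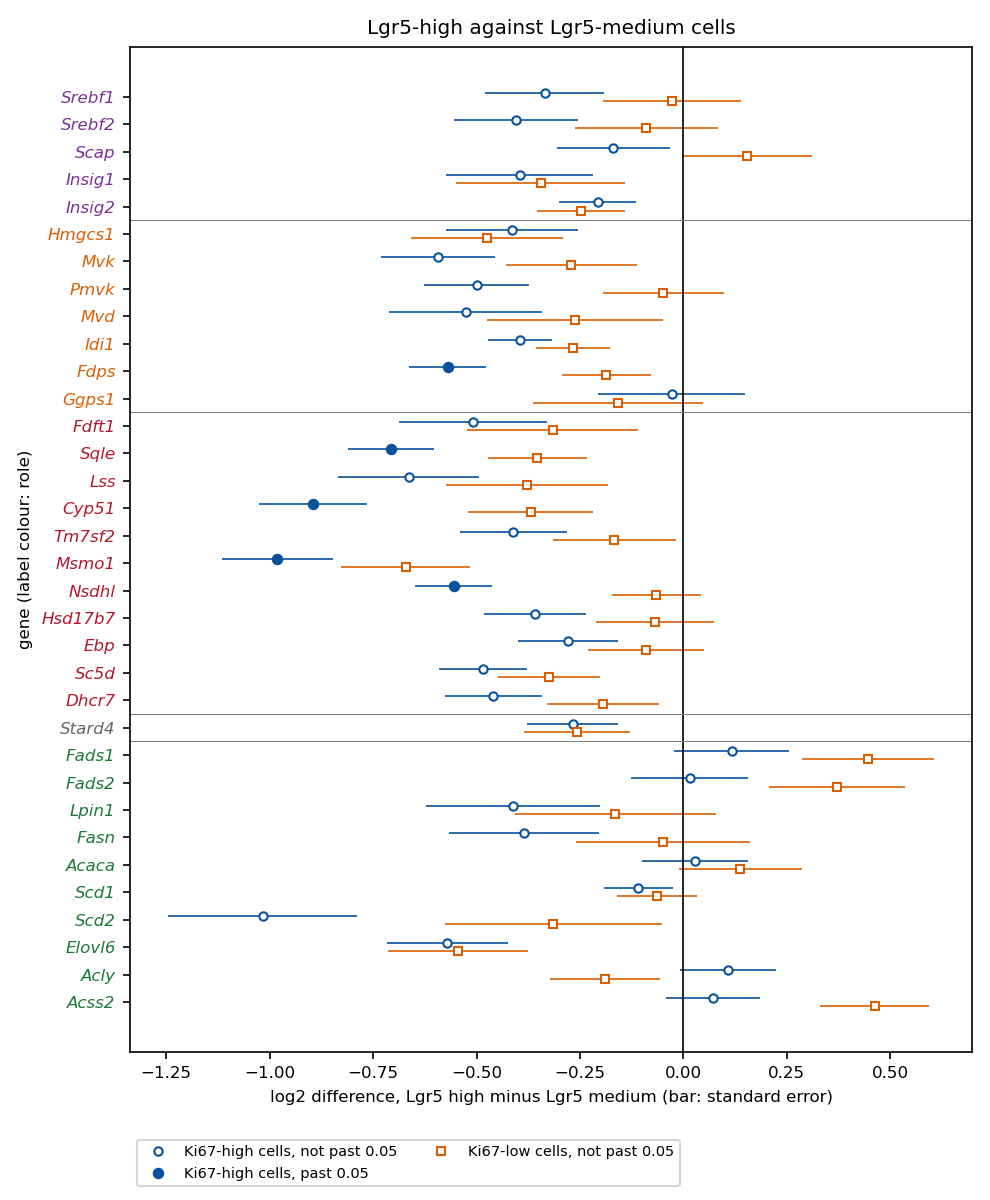
Log2 difference of each gene between Lgr5-high and Lgr5-medium cells (horizontal axis, Lgr5 high minus Lgr5 medium, bar for the standard error), among Ki67-high cells (blue circles) and Ki67-low cells (orange squares). Filled symbols passed the adjusted threshold of 0.05. All sterol enzymes are left of 0 (with centred arrays 3 of them turned among Ki67-low cells), with Msmo1 at -0.98 and -0.67. Fads1, Fads2, Acaca and Acss2 are right of 0 in both, the last 3 turning among Ki67-high cells with centred arrays.

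Of the 5 regulators of the pathway, none passed limma's test in any comparison. In the averaged Lgr5 comparison all 5 lay below 0 (median -0.23), except that Scap turned above 0 under quantile normalization, and 2 had an unadjusted p under 0.05, as did 20% of all genes. Among Ki67-high cells 4 of the 5 did so (15.2% of all genes), among Ki67-low cells 1 (14.6%), and in the Ki67 comparisons and the interaction 0. Among Ki67-high cells, Srebf2 had means of 8.64 ± 0.014 (SD, n = 2) at high Lgr5 and 9.04 ± 0.24 (SD, n = 4) at medium Lgr5. Among Ki67-low cells the means were 8.79 ± 0.031 (SD, n = 2) and 8.88 ± 0.23 (SD, n = 2). Its averaged Lgr5 difference was -0.25 ± 0.11 (limma adjusted p = 0.266), and it was -0.41 among Ki67-high cells and -0.09 among Ki67-low cells. For Srebf1, the means were 6.75 (Lgr5-high Ki67-high), 6.94 (Lgr5-high Ki67-low), 7.08 (Lgr5-medium Ki67-high) and 6.97 (Lgr5-medium Ki67-low), with an averaged difference of -0.18 ± 0.11 (limma adjusted p = 0.405). The Lgr5-medium Ki67-high arrays of Srebf2 ranged from 8.78 to 9.33, which includes part of the other groups' values.

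Insig1, itself a known SREBP target as well as a brake on SREBP, had means of 8.80, 8.67, 9.19 and 9.01 in the same order. Its averaged difference was -0.37 ± 0.14 (limma adjusted p = 0.153), similar in size to that of Fdps but with a wider spread. Insig2 measured 7.58 and 7.50 in Lgr5-high Ki67-high cells, 7.47 and 7.54 in Lgr5-high Ki67-low cells, 7.68, 7.69, 7.69 and 7.93 in Lgr5-medium Ki67-high cells, and 7.74 and 7.76 in Lgr5-medium Ki67-low cells. All Lgr5-high arrays of Insig2 were thus below the others, yet the difference of -0.23 ± 0.07 missed the threshold (limma adjusted p = 0.0938). Scap, the escort protein, had means of 7.78, 7.92, 7.95 and 7.77 and an averaged difference of -0.01 ± 0.10 (0.02 under quantile normalization).

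Fatty acid genes did not share 1 pattern. Of the 10 measured, 6 lay below 0 and 4 above 0 in the averaged Lgr5 comparison, with a median of -0.06, and Elovl6 alone passed. Elovl6 (probe set 10495993), which lengthens saturated and monounsaturated fatty acids, measured 9.69 and 9.99 in Lgr5-high Ki67-high cells and 9.68 and 9.56 in Lgr5-high Ki67-low cells. The Lgr5-medium arrays gave 10.30, 10.55, 10.67 and 10.14 with high Ki67 and 10.20 and 10.13 with low Ki67. The Lgr5 levels did not overlap, and Elovl6 fell by 0.56 ± 0.11 in Lgr5-high cells (limma adjusted p = 0.0192), with -0.57 and -0.54 among Ki67-high and Ki67-low cells.

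The paralogous desaturases Scd1 and Scd2, which place the double bond in stearoyl-CoA, could be read to different degrees. Scd2 (probe set 10463355) measured 7.63 and 7.97 in Lgr5-high Ki67-high cells, 7.82 and 7.60 in Lgr5-high Ki67-low cells, 8.92, 8.99, 9.12 and 8.24 in Lgr5-medium Ki67-high cells, and 8.23 and 7.82 in Lgr5-medium Ki67-low cells. Replicates 1 to 3 of the Lgr5-medium Ki67-high group stood above all other arrays, and its replicate 4 was close to the higher of the Lgr5-medium Ki67-low arrays. The Scd2 difference among Ki67-high cells, -1.02 ± 0.23, was the largest of the 34 genes and missed the threshold (limma adjusted p = 0.0715), as did its average of -0.67 ± 0.17 (0.0541). Scd1 lay between 2.69 and 2.95 on all arrays, among the dimmest 30% of genes, and its differences say little at that level.

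Fatty acid synthesis proper showed no call. Fasn, the fatty acid synthase, had means of 8.16 ± 0.18 (SD, n = 2), 8.38 ± 0.056 (SD, n = 2), 8.55 ± 0.31 (SD, n = 4) and 8.43 ± 0.23 (SD, n = 2) in Lgr5-high Ki67-high, Lgr5-high Ki67-low, Lgr5-medium Ki67-high and Lgr5-medium Ki67-low cells. Its averaged Lgr5 difference was -0.22 ± 0.14 (limma adjusted p = 0.429). Acaca, the carboxylase that commits acetyl-CoA to fatty acids, had means of 7.87, 7.91, 7.84 and 7.77 in the same order, and a difference of 0.08 ± 0.10 (limma adjusted p = 0.708). Acly, which supplies acetyl-CoA from citrate, had means of 8.22, 8.24, 8.11 and 8.43, and Lpin1, a phosphatase that forms diacylglycerol, means of 5.72, 5.67, 6.13 and 5.83. Lpin1 had 1 array, Lgr5-medium Ki67-high replicate 4, at 5.54, while the 3 others of that group were at 6.22 to 6.48.

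Besides Acaca, the genes above 0 in Lgr5-high cells on average were the polyunsaturated fatty acid desaturases and Acss2. Fads1 had means of 10.02, 10.22, 9.90 and 9.77, and Fads2 of 10.84, 11.07, 10.83 and 10.70, with averaged differences of 0.28 ± 0.11 and 0.19 ± 0.11 (limma adjusted p = 0.165 and 0.366). Acss2, which activates acetate, measured 8.91 and 8.70 in Lgr5-high Ki67-low cells and 8.54 and 8.54 in Lgr5-high Ki67-high cells. It measured 8.47, 8.52, 8.30 and 8.58 in Lgr5-medium Ki67-high cells and 8.19 and 8.49 in Lgr5-medium Ki67-low cells. Only the Lgr5-high Ki67-low arrays stood above the rest for Acss2, and its averaged difference of 0.27 ± 0.09 missed the threshold (limma adjusted p = 0.113). Centred on array medians, the values of Fads2, Acaca and Acss2 among Ki67-high cells turned below 0.

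**Figure D4:**
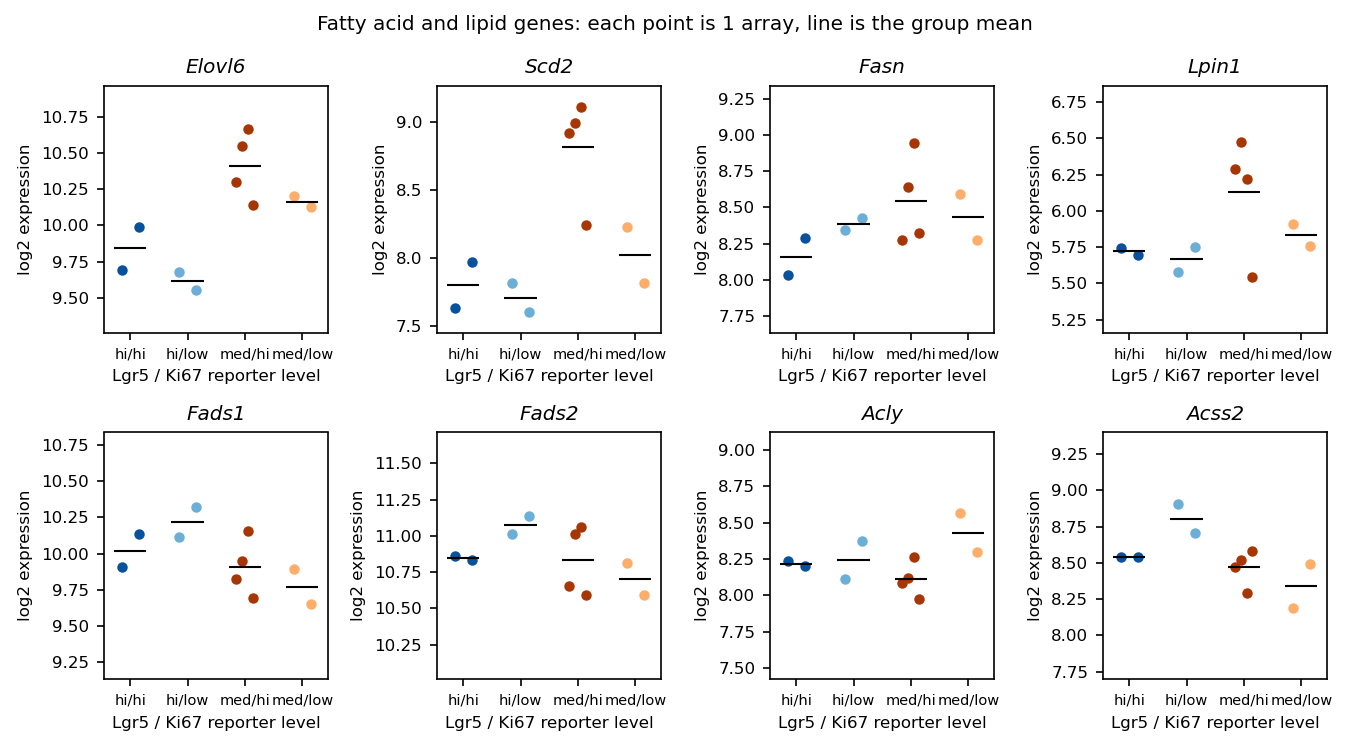
Log2 expression of 8 fatty acid and lipid genes, with 1 point per array, a line at each group mean, and the sort groups on the horizontal axis (Lgr5 level before the slash, Ki67 level after it; hi, med and low stand for high, medium and low). The vertical axes differ between genes. Elovl6 and Scd2 are lowest in the Lgr5-high groups, while Fads1, Fads2 and Acss2 have their highest mean in Lgr5-high Ki67-low cells.

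The Ki67 comparison set cells with low Ki67 reporter against cells with high Ki67 reporter within the same Lgr5 gate. Among Lgr5-high cells, all 7 measured markers of G2 and mitosis lay below 0 in the Ki67-low fraction (median -0.44). All 6 measured S phase markers lay above 0 there (median 0.30). Lgr5 itself was not at 1 level within a gate: among Lgr5-medium cells its mean was 8.58 in the Ki67-low and 7.39 in the Ki67-high fraction (limma adjusted p = 0.000986), and among Lgr5-high cells its difference was 0.84 (0.598). Among Lgr5-high cells the Ki67 comparison gave no call in the set, where 0.00531% of all genes (1 gene) passed. There, 0 of the 34 genes had an unadjusted p under 0.05, against 4.53% of all genes. The 34 genes had a median of -0.03, with 19 below 0, and the sterol enzymes one of -0.09. The smallest p-values belonged to Acss2 (0.26 ± 0.13), Idi1 (-0.16 ± 0.09) and Pmvk (0.24 ± 0.15), each with a limma adjusted p of 0.9998. Hmgcs1 was at -0.11, Sqle at -0.09 (95% interval -0.35 to 0.18), Msmo1 at 0.03 (-0.32 to 0.37), Fasn at 0.22, Acaca at 0.04, Srebf1 at 0.20, Srebf2 at 0.15, Scap at 0.14, Insig1 at -0.13 and Insig2 at -0.04. The median of the 34 genes turned to 0.03 without Lgr5-high Ki67-high replicate 2.

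Among Lgr5-medium cells, 17 of 18 sterol enzymes lay below 0 in the Ki67-low fraction (18 with centred arrays), with a median of -0.33 against -0.02 for all genes. Nsdhl fell by 0.49 ± 0.09 (limma adjusted p = 0.0164) and Sqle by 0.44 ± 0.10 (limma adjusted p = 0.049), with their values by array as given above. The 2 calls are 5.88% of the 34 genes, where 3.58% of all genes passed in either direction and 0.93% as lower. At an unadjusted p under 0.05 there were 14 of the 34 genes, 13 of them lower, and 15.7% of all genes. Both Lgr5-medium Ki67-low arrays lay below all 4 Lgr5-medium Ki67-high arrays for 10 of the 34 genes (29.4%), namely Mvk, Idi1, Fdps, Sqle, Cyp51, Tm7sf2, Nsdhl, Hsd17b7, Dhcr7 and Scd2, and for 13.9% of all genes. The comparison shares the 4 Lgr5-medium Ki67-high arrays with the Lgr5 comparison among Ki67-high cells, so their values for a gene are not independent.

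Close to the threshold was Idi1, at -0.28 ± 0.08 (limma adjusted p = 0.0886), with Fdps at -0.34 ± 0.09 (0.0923). Scd2 had the largest size, -0.79 ± 0.23 (0.107). Acly stood on the other side, at 0.32 ± 0.12 (0.204), and Hmgcs1 near 0, at -0.05 ± 0.16 (0.927). The regulators gave -0.11 for Srebf1, -0.16 for Srebf2, -0.18 for Scap, -0.18 for Insig1 and 0.00 for Insig2, and Fasn, Acaca and Scd1 gave -0.11, -0.07 and -0.04, none past the threshold. Insig2 was at -0.13 with centred arrays.

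In the same comparison, 7 of 7 tuft, 8 of 8 enteroendocrine, 6 of 7 goblet, 3 of 7 Paneth and 3 of 8 stem cell markers passed the threshold as higher in the Ki67-low fraction. Their lists had medians of 3.19, 2.72, 1.48, 1.40 and 0.44, with every measured marker of the 5 lists above 0, and the stem cell markers that passed were Lgr5, Igfbp4 and Rgmb. All 8 immune and all 7 enterocyte markers measured also lay above 0 (medians 0.63 and 0.26), with 1 and 0 past the threshold. Of 8 stromal markers 7 lay above 0 (median 0.04), and 1, Vim, passed at 2.50. All 7 markers of G2 and mitosis were lower (median -0.74), while 4 of the 6 measured S phase markers lay above 0 and 2 below (median 0.06). Summed goblet levels were 14.67 to 14.77 on these arrays and 13.57 to 13.95 in the Ki67-high fraction, and summed levels of the G2 and mitosis genes 10.61 to 10.84 and 11.37 to 11.49. The part of these lists in the sterol values was not tested. Between the Lgr5-medium Ki67-low arrays, replicate 1 exceeded replicate 2 for 29 of the 34 genes and for 51.8% of all genes. Summed immune marker levels were 8.29 in replicate 1 and 9.13 in replicate 2. Tuft (10.57 and 11.36), enterocyte (13.65 and 14.07) and G2 and mitosis levels (10.61 and 10.84) were also lower in replicate 1. Stem, enteroendocrine, goblet, Paneth, stromal and S phase levels were higher there. The median of the 34 genes, -0.23, was -0.35 with replicate 1 left out and -0.11 with replicate 2 left out. Counts of calls with 1 array left out are again of the set alone, without the share of all genes. No gene of the set passed with that replicate 2, or replicate 2 of the Lgr5-medium Ki67-high cells, left out, and 7 passed with replicate 4 of the latter left out. A single gene, 1 of the 34, passed with replicate 1 of the Ki67-low arrays, replicate 3 of the Ki67-high arrays or any 1 of the 4 Lgr5-high arrays left out. With each array centred on its median, 8 genes of the set passed as lower, and the split over all genes changed from 499 higher and 175 lower to 417 higher and 767 lower.

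**Figure D5:**
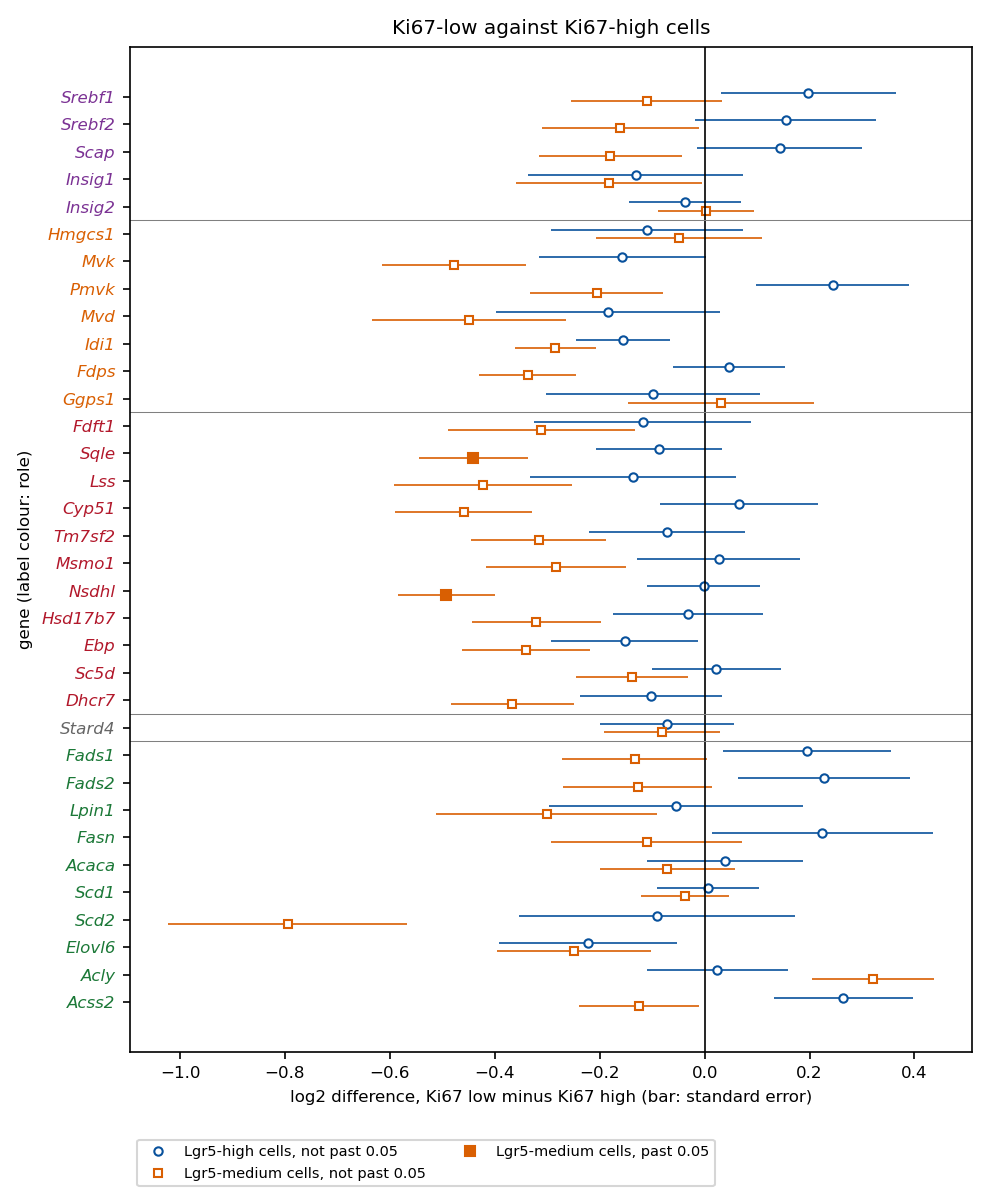
Log2 difference of each gene between Ki67-low and Ki67-high cells (horizontal axis, Ki67 low minus Ki67 high, bar for the standard error), among Lgr5-high cells (blue circles) and Lgr5-medium cells (orange squares). Filled symbols, Nsdhl at -0.49 and Sqle at -0.44, passed the adjusted threshold of 0.05. Sterol enzymes lie left of 0 among Lgr5-medium cells except Ggps1 (also left with centred arrays), and on either side of 0 among Lgr5-high cells.

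Averaged over both Lgr5 levels, no gene of the set passed in the Ki67 comparison, where 1.24% of all genes did, and 8 of the 34 genes had an unadjusted p under 0.05, against 11.9% of all genes. Idi1 (-0.22 ± 0.06), Nsdhl (-0.25 ± 0.07) and Sqle (-0.26 ± 0.08) had the smallest p-values (limma adjusted p = 0.133, 0.160 and 0.182), and 17 of 18 sterol enzymes lay below 0. Without Lgr5-medium Ki67-high replicate 4, 2 genes of the set passed. An interaction term tested whether the Ki67 difference was the same at both Lgr5 levels. No gene of the set passed that test either, where 1.04% of all genes did, and 6 of the 34 genes had an unadjusted p under 0.05, against 8.08% of all genes. Nsdhl came closest, at 0.49 ± 0.14 (limma adjusted p = 0.252), followed by Fdps at 0.38 ± 0.14 (0.472) and Cyp51 at 0.53 ± 0.20 (0.491). Of the 34 genes 30 lay above 0 and 4 below (1 below with centred arrays, 6 under quantile normalization), with a median of 0.28 against 0.02 for all genes. Leaving out replicate 2 of the Lgr5-medium Ki67-low cells brought the median to 0.14. The difference between the Ki67 responses at both Lgr5 levels thus missed the threshold for all 34 genes.

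Likeness among the genes was described by Pearson's r over the 10 arrays, which share their sort groups and their arrays, so no test is attached. The 153 pairs of sterol enzymes had a median r of 0.84, from -0.21 to 0.99, and the 45 pairs of fatty acid genes a median of 0.25, from -0.68 to 0.92. Fdps (mean r of 0.86), Sqle and Cyp51 (0.85 each) were most like the other sterol enzymes, and Ggps1 (0.13) least. Outside the enzymes, Scd2 and Elovl6 (0.82 each), Insig1 (0.77) and Srebf2 (0.71) were most like them, whereas Acss2 had a mean r of -0.49. Within the Lgr5-medium Ki67-high group, replicate 3 was highest for 23 of the 34 genes, and replicate 4 was lowest for 18.

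Other lipid genes were taken from lists to set the pathway in context. Enzymes of other sterol and isoprenoid branches (11 of 15 measured) and genes of SREBP processing and its partners (12 of 15 measured) had no call by limma in any comparison. In the averaged Lgr5 comparison their medians were -0.08 and -0.0044. An unadjusted p under 0.05 was reached there by 2 of the 11 and 2 of the 12 genes, and by 20% of all genes. In the list of sterol uptake, transport, efflux and storage (15 of 20 measured), Npc1l1, the intestinal cholesterol importer, was lower in Lgr5-high cells at both Ki67 levels, with differences of -0.64 ± 0.11 and -0.67 ± 0.12 (limma adjusted p = 0.0309 and 0.0192). Its group means were 9.23 and 9.10 in the Lgr5-high groups and 9.87 and 9.77 in the Lgr5-medium groups. The sterol exporter Abcg1 was higher in Lgr5-medium Ki67-low cells (mean 4.07) than in Lgr5-medium Ki67-high (3.53) and Lgr5-high Ki67-low cells (3.47), by 0.54 (limma adjusted p = 0.00985) and 0.60 (0.0147).

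Of the other fatty acid genes (26 of 28 measured), 5 were lower and 1 was higher in Lgr5-high cells on average, a comparison in which 5.92% of all genes passed and 3.52% passed as lower. The lower ones with the smallest p-values were Mid1ip1, an activator of acetyl-CoA carboxylase (-0.43, limma adjusted p = 0.00913), and Acsl4, which activates polyunsaturated fatty acids (-0.45, 0.0110). Elovl5, an elongase of polyunsaturated fatty acids, was the higher one (0.31, 0.0153). In the glycerolipid list (14 of 15 measured), 4 genes were lower and none higher. They included Dgat2 (-0.61, limma adjusted p = 0.0103) and Dgat1 (-0.38, 0.0234), which make triglyceride, and Agpat2 (-0.61, 0.0288), which makes phosphatidic acid. The 7 enterocyte markers measured, which mark the cells that take up and store dietary lipid, were all below 0 in the same comparison (median -0.41, 1 of 7 past the threshold). Their summed levels were 12.93 to 13.43 on the Lgr5-high arrays and 13.12 to 14.07 on the Lgr5-medium arrays, and their part in these values was not tested.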

How the data were processed

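The deposited table holds 1 value per probe set for 35556 probe sets on each of 10 Affymetrix Mouse Gene ST 1.1 arrays. The deposited values lie between 1.16 and 13.76 and were read as log2. The submitters' processing notes list the names MAS5 and GCOS; how the authors corrected and normalized the arrays, and the log base, is not stated. Values were used as deposited. Gene symbols came from the platform annotation (21218 probe sets with 1 symbol, 1881 with several, 12457 unnamed here). limma 3.58.1 in R 4.3.3 fitted 1 mean per sort group over the 10 arrays (6 residual degrees of freedom), and moderated p-values received the Benjamini-Hochberg adjustment across 18820 genes in each comparison. The procedure was tested on simulated data. The genes described and the gene lists were chosen with earlier results of these data known. Genes given full statistics were those past the threshold in a comparison (at most 8, smallest p first), filled up to 3 by smallest p; Srebf1, Srebf2, Scap, Insig1, Insig2, Hmgcs1, Sqle, Acaca, Fasn and Scd1 were always described, and any other value shows how its role group varies. The number of arrays limits the precision. Alternatives covered array scaling, array weights, the variance model, dim genes, probe sets, the rows and groups fitted, the replicate number as a block, and leaving out each array.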

Additional observations from a re-analysis of the deposited data

Results flagged for a closer look

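Within the Lgr5-medium Ki67-high group, 3 of the 34 genes had 1 array far from the other 3, by Dixon's criterion; chance gives this in about 1 of 20 genes. Idi1, the isoprenoid isomerase, was low in replicate 2, at 9.57 where the nearest array had 9.64, a gap that is small beside the Lgr5 difference of this gene. Sqle, squalene epoxidase, was high in replicate 3, at 8.67 where the nearest array had 8.45. Insig2, which retains Scap, was high in replicate 4, at 7.93 where the nearest array had 7.69. The 3 flags fell on 3 different arrays.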

How the results depend on the processing

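Counts of genes of the set past the threshold moved with the processing in several comparisons and stayed at 0 in others. They are given mostly without the share of all genes past it under the same setting. They therefore describe the processing and are no result about the set. Lgr5 comparison averaged over Ki67 (10 calls): 17 with array weights, 5 with every row of the table tested, and 3 to 18 with 1 array left out. Lgr5 comparison among Ki67-high cells (5 calls): 20 with array weights, 0 with every row, and 0 to 11 with 1 array left out. Lgr5 comparison among Ki67-low cells (0 calls): 1 each with quantile normalization, array weights, a trended robust variance model and the dimmest 30% of genes removed, and 0 to 1 with 1 array left out. Ki67 comparison among Lgr5-medium cells (2 calls): 8 with centred arrays, 5 with array weights, 1 each with quantile normalization, only these groups fitted, the trended robust model and every row, and 0 to 7 with 1 array left out. The averaged Ki67 comparison (0 calls) gave 0 to 2 with 1 array left out, and the Ki67 comparison among Lgr5-high cells and the interaction gave 0 in every setting tried. The cause of these moves was not tested. Where leaving out an array left 1 in a group, that array was assumed to vary like the other groups. Deviations of same-numbered arrays from their group means correlated at -0.30 to 0.01, and the labels do not say what a number stands for. In a group of 2 arrays these deviations are equal and opposite. The correlations therefore cannot decide whether arrays of different groups belong together. With the replicate block, 10 genes passed in the averaged Lgr5 comparison (6 of them among the 10 without it), 0 among Ki67-high cells and 1 in the Ki67 comparison among Lgr5-medium cells. A crossed pairing of the Ki67-low groups, added after seeing the data, gave 5 calls in the set. Counted as 1 value per gene, comparison and alternative, 73 values lost and 19 gained the threshold, and 1314 stayed on their side of it. Another 4, of Insig1, Insig2, Srebf2 and Scap, had no call and changed sign by at least the standard error of the main difference. Smaller changes of sign around 0 are among the 1314. Centring changed the split of all called genes from 98 higher and 78 lower to 81 and 120 in the Lgr5 comparison among Ki67-high cells (114 and 56 with quantile normalization), from 124 and 410 to 253 and 328 among Ki67-low cells, and from 168 and 65 to 140 and 101 in the averaged Ki67 comparison. It moved the median of all genes from -0.02 to -0.15 in the Ki67 comparison among Lgr5-medium cells and from 0.02 to 0.17 in the interaction. No background signal was used here, so signal over background is unknown, and Scd1 is the 1 gene of the set among the dimmest 30%.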
